A study of Bos taurus with 6 samples.

Results

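The MHC class II presentation genes of bovine granulosa cells were examined, as 8 named genes: the chains BOLA-DRA, BOLA-DRB3 and BOLA-DQB, the chaperone subunits BOLA-DMA and BOLA-DMB, the invariant chain CD74, the protease CTSS and the transactivator CIITA. Every array probe annotated to one of these symbols was taken, which gave 8 probes for 7 genes among the 43794 probes of the array and the 9932 genes tested. No probe in the annotation used here carried the symbol CIITA, so CIITA was not analysed here. All 7 genes with a probe passed the filter on dim signals, CD74 and BOLA-DMA only through the long FSH group, where 3 of their 6 readings were above background. The 8 genes were chosen with their long FSH over conventional FSH log2 ratios already known, so these ratios are given as a description without a test.

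MHC class II molecules are pairs of an alpha and a beta chain that carry peptides from the endosome to the surface of the cell, where CD4+ T cells read them. They are made mostly by dendritic cells, macrophages and B cells, and other cells can make them under interferon gamma, which acts through CIITA. The invariant chain CD74 holds the binding groove until cathepsin S cuts it down, and the DM heterodimer then exchanges its last fragment for a peptide. Bovine class II genes are called BOLA genes, after the bovine leukocyte antigen complex. The DQ and DRB genes vary strongly between animals and have close relatives that one probe may not tell apart.

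The arrays held granulosa cell RNA of multiparous beef cows, 3 from the long FSH group, which received the hormone over 7 days, and 3 from the conventional FSH group, which received it over 4 days. In both groups FSH was injected every 12 h from the start of a wave synchronised by follicle ablation, under a progesterone device, and was followed by prostaglandin and LH. The ovaries were removed 24 h after LH and the largest follicles of a cow were pooled, and the age of the cows was not given in the sources used here. Each long FSH cow was paired on the arrays with a conventional FSH cow, and each pair was hybridised on 2 arrays with the dyes exchanged, which gives 6 arrays and n = 3 cow pairs.

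Values are log2 ratios of background-subtracted median intensities, normalized by loess within arrays and averaged over both arrays of a pair. The level of a gene in a cow is its normalized log2 intensity, averaged over the same arrays, and levels of different probes are not comparable. The dye of each group differs between the sample labels and the design text. The direction used here is that of the design text, which the legends of the study and its RT-PCR share, so it is likely rather than settled. With the other direction every value called higher would be lower. The study's limits stand for an unadjusted p of 0.05 or less together with at least a 2-fold difference, which 337 genes passed as higher and 201 as lower in limma. None of the 9932 genes reached an adjusted p of 0.05 in limma, where the smallest was 0.0767, while at any size of difference 1158 had an unadjusted p up to 0.05.

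Between 41.8% and 51.4% of the probes gave a signal above background, depending on array and dye. The log2 ratios of both arrays of a pair correlated across the tested probes with r = 0.43 in pair 1, 0.65 in pair 2 and 0.24 in pair 3. The ratios of pair 3 correlated with those of either other pair at r = 0.16, against 0.43 between pairs 1 and 2. Since the arrays of pair 3 also agreed least with each other, these correlations do not show whether its cows differed more. The class II presentation genes are therefore given by pair. Of the granulosa markers, FSHR and INHA were above background in all 12 readings and CYP19A1 in 11, while FOXL2 was above it in none. RNA of a cell population was measured, so that more cells of a kind and more RNA per cell cannot be told apart.

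BOLA-DRB3, the beta chain of the main bovine DR molecule, had levels of 10.30, 10.33 and 14.43 in the long FSH cows of pairs 1, 2 and 3. In the conventional FSH cows the levels were 8.25, 7.93 and 9.47. All long FSH cows lay above all conventional FSH cows, and the long FSH cow of pair 3 lay far above the other five. The log2 ratio was 3.13 ± 1.59 (SD, n = 3), or 8.76-fold, and the signal was above background in all 12 readings. By array the ratios were 2.22 and 1.86 in pair 1, 2.27 and 2.52 in pair 2, and 5.70 and 4.21 in pair 3, so that both dye orientations gave the same side in each pair.

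BOLA-DRA encodes the alpha chain that joins the DRB chains. Its levels were 8.40, 8.31 and 13.01 in the long FSH cows and 7.24, 6.26 and 7.61 in the conventional FSH cows of pairs 1, 2 and 3. The groups did not overlap, and again the long FSH cow of pair 3 was the one far above the rest. Its log2 ratio was 1.17 in pair 1, 2.05 in pair 2 and 5.40 in pair 3, with a mean of 2.87 ± 2.23 (SD, n = 3), or 7.34-fold. The arrays of pair 3 gave 4.45 and 6.35. Only 3 of the 6 conventional FSH readings were above background, so the lower levels of this gene are near the limit of the measurement.

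BOLA-DQB, a DQ beta chain, had a different order of cows. Its levels were 9.50, 12.12 and 11.07 in the long FSH cows and 9.42, 9.20 and 7.00 in the conventional FSH cows of pairs 1, 2 and 3. The groups did not overlap, but in pair 1 they nearly met, and the highest level was in the long FSH cow of pair 2. The lowest level was in the conventional FSH cow of pair 3. This gave a log2 ratio of 0.08 in pair 1, 2.91 in pair 2 and 4.07 in pair 3, with a mean of 2.36 ± 2.05 (SD, n = 3). The arrays of pair 1 fell on opposite sides of 0, at -0.64 and 0.81. Close DQ relatives may share this probe, and how much of the signal came from each was not tested.

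BOLA-DMB, the beta subunit of the DM heterodimer that loads peptides, had levels of 8.94, 8.38 and 12.59 in the long FSH cows. The conventional FSH cows had 7.90, 7.51 and 8.18. The groups did not overlap, by a small margin in pairs 1 and 2 and by a wide one in pair 3. Ratios on the log2 scale were 1.04 in pair 1, 0.87 in pair 2 and 4.41 in pair 3, with a mean of 2.11 ± 2.00 (SD, n = 3), or 4.31-fold.

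BOLA-DMA, its partner subunit, did not share this pattern. The levels were 6.35, 6.69 and 7.15 in the long FSH cows and 6.63, 6.35 and 6.76 in the conventional FSH cows. The groups overlapped. Over the pairs the log2 ratio was 0.15 ± 0.37 (SD, n = 3), and the arrays of pair 1 gave -1.74 and 1.17, so that the spread between dye orientations exceeded the difference between groups. This probe was above background in 3 long FSH readings and 1 conventional FSH reading of 6 each, so its levels lay near background in both groups.

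CTSS, the cathepsin that trims the invariant chain, was read by 2 probes. The brighter one had levels of 9.92, 10.23 and 14.70 in the long FSH cows and 8.90, 8.16 and 9.49 in the conventional FSH cows. The groups did not overlap, and the long FSH cow of pair 3 was again far above the others. Its log2 ratio was 1.02 in pair 1, 2.07 in pair 2 and 5.21 in pair 3, with a mean of 2.77 ± 2.18 (SD, n = 3), or 6.81-fold. The other CTSS probe was dim, with 7 of its 12 readings above background, and gave -0.39, -0.39 and 0.36, with a mean of -0.14 ± 0.43. The probes of this gene therefore disagree, and which part of the transcript each one reads was not tested.

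CD74 encodes the invariant chain itself. Its levels were 6.83, 6.51 and 8.00 in the long FSH cows and 6.32, 6.09 and 6.75 in the conventional FSH cows, and the groups overlapped. The log2 ratio was 0.52 in pair 1, 0.42 in pair 2 and 1.26 in pair 3, with a mean of 0.73 ± 0.46 (SD, n = 3). The long FSH signal was above background on 3 of 6 arrays and the conventional FSH signal on none. A group that is nowhere above background has only an upper limit, which was set on each array at the lowest signal above background in that channel or the own signal of the probe, whichever was higher. Against that limit the mean of the long FSH group was at least 1.06-fold, a bound in which the 3 long FSH readings that were not above background are averaged with the other 3. Background-subtracted intensities were 68 to 254 in the long FSH group and 42 to 156 in the conventional FSH group.

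**Figure D1:**
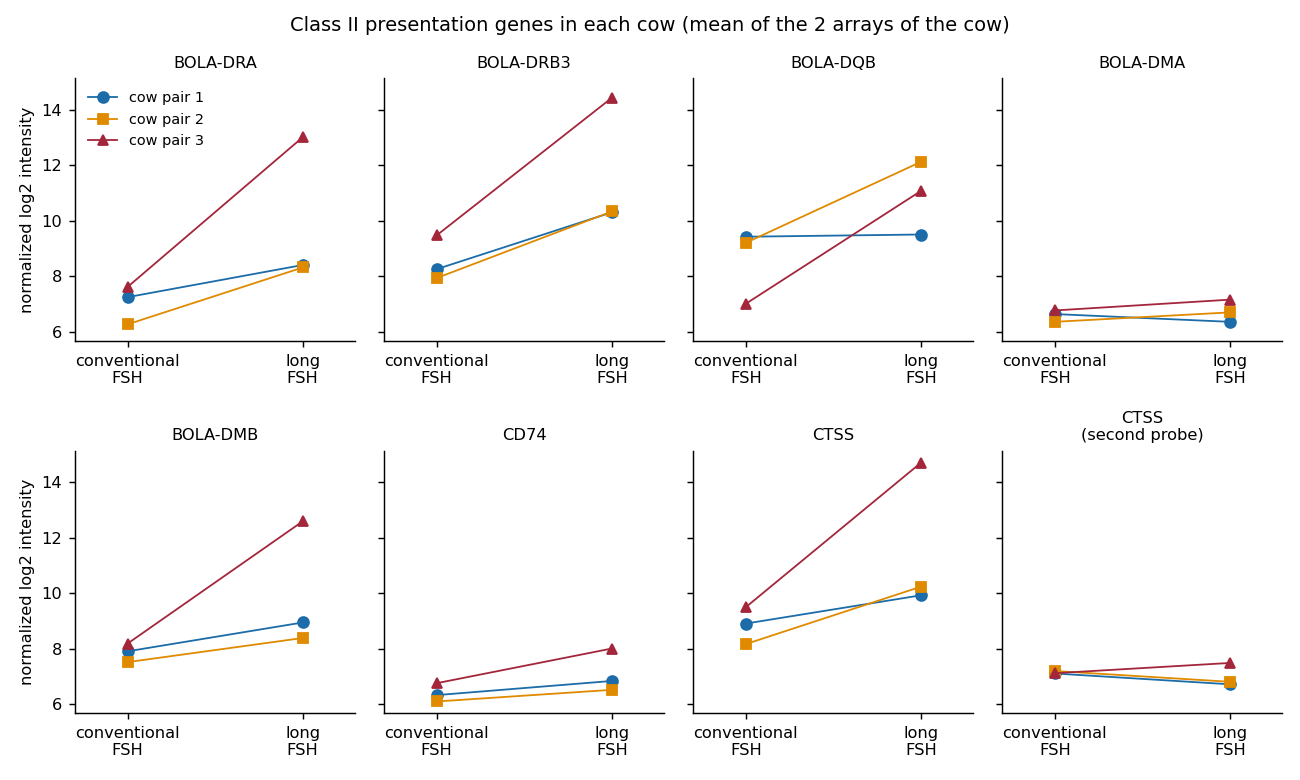
Normalized log2 intensity of each class II presentation gene in each cow (y axis), for the conventional FSH and the long FSH group (x axis), with a line joining the cows of a pair. The long FSH cow of pair 3 reached 13.01 for BOLA-DRA, 14.43 for BOLA-DRB3, 12.59 for BOLA-DMB and 14.70 for CTSS, while BOLA-DMA, CD74 and the second CTSS probe stayed at 8.00 or less in every cow.

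Over the 7 genes the median log2 ratio was 2.36, against 0.03 over all 9932 genes tested. By pair the median was 1.02 in pair 1, 2.05 in pair 2 and 4.41 in pair 3, against 0.02, 0.04 and 0.00 over all genes. Without pair 3 the median was 1.5. The largest ratio of each of the 7 genes was in pair 3, which was true of 3393 of all 9932 genes.

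At the study's limits 5 of the 7 genes were higher in the long FSH group, namely BOLA-DRA, BOLA-DRB3, BOLA-DQB, BOLA-DMB and CTSS, where 3.39% of all genes tested were. None was lower, where 2.02% of all genes were. The same 5 genes had all long FSH cows above all conventional FSH cows, as had 8.62% of all genes, and 6 of the 7 were higher in all 3 pairs, as were 18.8% of all genes. The genes were chosen by this contrast, so nothing is read from these shares. Without pair 3 only BOLA-DRA, BOLA-DRB3 and CTSS were past the limits, with log2 ratios of 1.61, 2.22 and 1.54, and BOLA-DQB at 1.5 and BOLA-DMB at 0.96 were not. With limma's trend and robust options none of the 7 was past them, and with the deposited table of ratios only BOLA-DRB3 was.

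**Figure D2:**
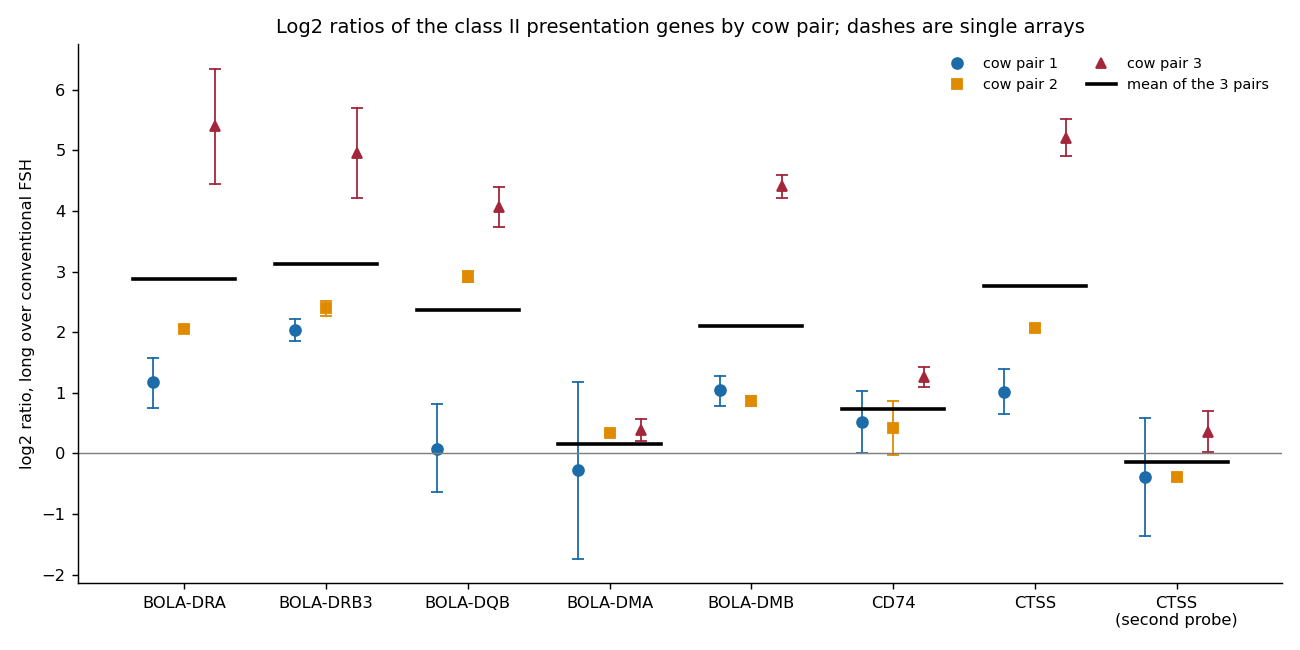
Log2 ratio of long over conventional FSH (y axis) for each probe (x axis), with a symbol for the mean of each cow pair, dashes for its single arrays and a black line for the mean of the 3 pairs. Pair 3 is highest for every probe, from 0.36 for the second CTSS probe to 5.40 for BOLA-DRA.

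The difference of pair 3 from the mean of pairs 1 and 2 was 2.74 on the log2 scale as the median over the 7 genes, against -0.01 over all genes. For 4 genes it came with the long FSH cow. Relative to the mean of the other cows of its group, that cow was higher by 4.66 for BOLA-DRA, 4.11 for BOLA-DRB3, 3.93 for BOLA-DMB and 4.62 for CTSS. The conventional FSH cow of pair 3 was also higher than its group, but by less, at 0.86, 1.38, 0.47 and 0.95 for the same genes. For BOLA-DQB the long FSH cow differed by 0.26 from its group and the conventional FSH cow by -2.31, so that there the large ratio of pair 3 came with a low control. With 3 pairs no test of a single pair is possible.

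Other class II chains were less uniform. Of 10 chains listed, 8 had a probe and 5 were tested, with a median log2 ratio of 1.14. Past the study's limits were 2 of these as higher, beside 3.39% of all genes, and none as lower, beside 2.02%. BOLA-DQB1, another DQ beta chain, had levels of 7.52, 10.82 and 10.03 in the long FSH cows and 7.86, 7.67 and 7.34 in the conventional FSH cows. The long FSH cow of pair 1 lay among the controls and the other long FSH cows lay well above them. The mean log2 ratio was 1.83 ± 1.90 (SD, n = 3; limma adjusted p = 0.399).

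BOLA-DYB, the beta chain of the DY molecule found in ruminants, had levels of 7.50, 10.96 and 9.67 in the long FSH cows. The conventional FSH cows had 7.76, 7.54 and 7.38. Here too the long FSH cow of pair 1 lay among the controls, as with BOLA-DQB1, and the log2 ratio was 1.82 ± 1.89 (SD, n = 3; limma adjusted p = 0.400). Whether these probes share targets was not tested. Both calls were lost without pair 2 and without pair 3, where the log2 ratios were 1.17 and 1.41 for BOLA-DQB1 and 1.02 and 1.58 for BOLA-DYB.

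BOLA-DYA, the DY alpha chain, gave 0.13, 0.47 and 2.82 in pairs 1, 2 and 3, with a mean of 1.14 ± 1.47 (limma adjusted p = 0.470). It passed the filter only through the long FSH group. BOLA-DQA5, a DQ alpha chain, gave -0.10, 0.13 and 2.93, with a mean of 0.98 ± 1.69 (limma adjusted p = 0.541). Both alpha chains were high in pair 3 alone, whereas the beta chains BOLA-DQB1 and BOLA-DYB were high in pairs 2 and 3. Without pair 2 BOLA-DYA was past the limits, at 1.47. BOLA-DOB, a chain of the DO molecule that restrains DM, gave -0.18 ± 0.10 (limma adjusted p = 0.684) and was tested only through 3 conventional FSH readings, with no long FSH reading above background. BOLA-DQA1, BOLA-DQA2 and BOLA-DRB2 had a probe that was too dim to be tested.

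In the order of the RefSeq gene table (assembly ARS-UCD2.0, used for names and neighbours only, since the array files name no build) the class II genes form separate runs. One run goes from BOLA-DYA over BOLA-DYB, BOLA-DOB and the class I transport and proteasome genes to BOLA-DMB and BOLA-DMA, which are next to each other. The other goes from BOLA-DQA2 and BOLA-DQB over BOLA-DQA5, BOLA-DQB1 and BOLA-DRB3 to BOLA-DRA. Ratios within the first run were uneven. BOLA-DMB had a log2 ratio of 2.11 and its neighbour BOLA-DMA 0.15, on a probe near background, and the class I genes in the same run had 0.72 (TAP2), 0.49 (TAP1) and -0.03 (PSMB9). All 5 tested genes of the other run had ratios of 0.98 or more.

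**Figure D3:**
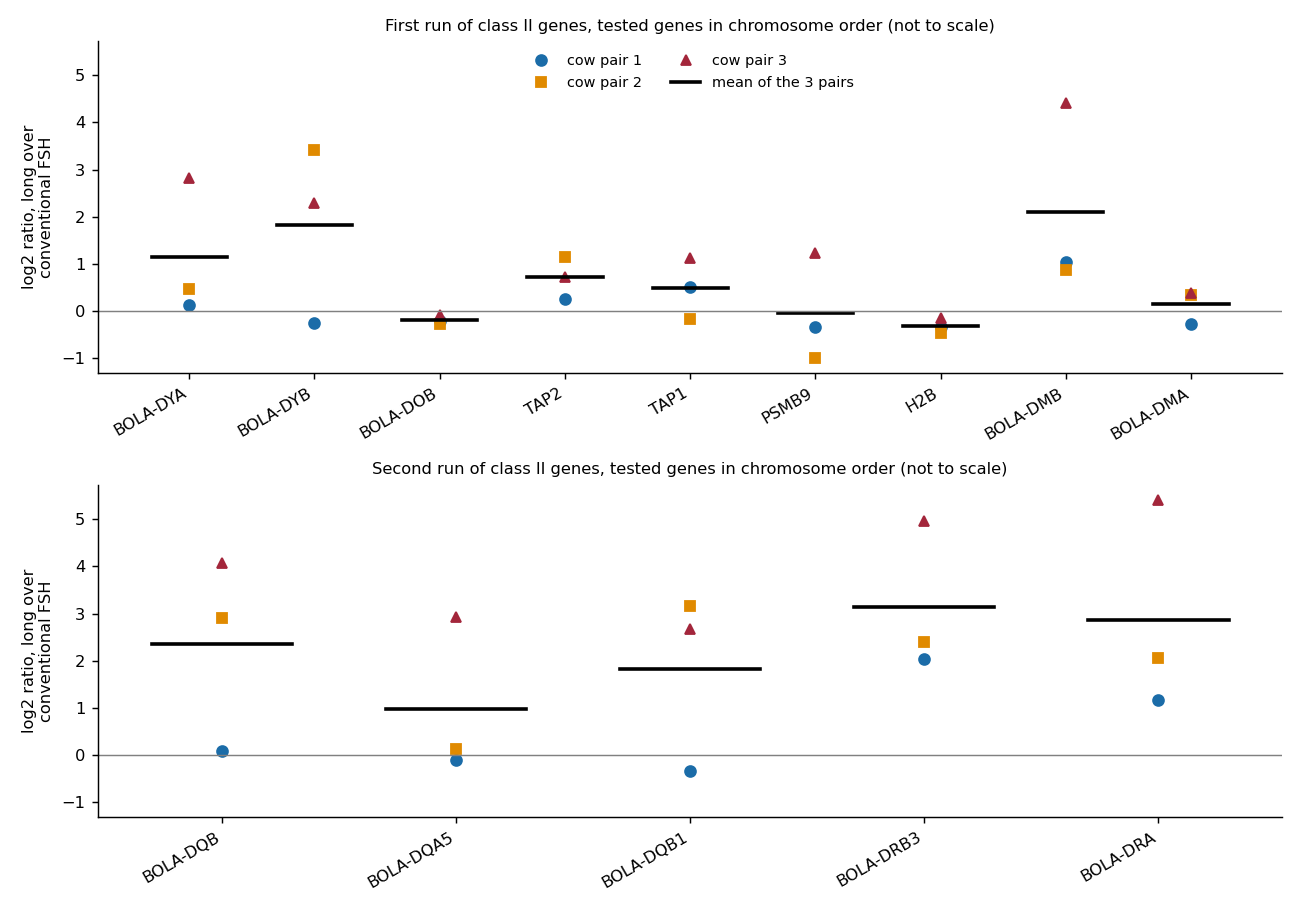
Log2 ratio of long over conventional FSH (y axis) of the tested genes in the runs of class II genes, in chromosome order and not to scale (x axis), with a symbol for each cow pair and a black line for the mean of the 3 pairs. BOLA-DQB, BOLA-DQB1 and BOLA-DYB lie near 0 in pair 1 and between 2.30 and 4.07 in pairs 2 and 3, while BOLA-DYA, BOLA-DQA5 and BOLA-DMB lie between 2.82 and 4.41 in pair 3 and at 1.04 or less in the other pairs.

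None of the regulators of class II transcription was past the limits. Of 16 genes listed for class II transcription and interferon gamma signalling, 12 were tested and none was past the study's limits in limma, while 2 had an unadjusted p of 0.05 or less below the fold limit. These were IFNGR2, a chain of the interferon gamma receptor, at 0.82 ± 0.51 (adjusted p = 0.334) and past the limits without pair 2 at 1.11, and NFYB, a subunit of the NF-Y factor that binds class II promoters, at 0.72 ± 0.62 (adjusted p = 0.428). RFXANK and RFX5, subunits of the RFX complex that recruits CIITA, gave 0.40 ± 0.16 (adjusted p = 0.482) and -0.40 ± 0.28 (adjusted p = 0.502) in limma. The median of the 12 genes was 0.16 and did not exceed 0.32 in any pair. IFNG itself was above background in 2 of 12 readings and was not tested.

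Of 17 endosomal proteases, inhibitors and membrane proteins listed, 13 were tested, with a median log2 ratio of 0.20. Past the limits were 1 as higher, beside 3.39% of all genes, and none as lower, beside 2.02%. LGMN, the asparaginyl endopeptidase that begins the cutting of the invariant chain, had levels of 11.75, 11.34 and 13.90 in the long FSH cows and 11.11, 10.45 and 10 in the conventional FSH cows. The groups did not overlap, by the widest margin in pair 3. The log2 ratio was 1.81 ± 1.81 (SD, n = 3; limma adjusted p = 0.392), and without pair 3 it was 0.77 and no longer past the fold limit.

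CTSD, a lysosomal aspartic protease, gave 0.67 ± 0.37 (limma adjusted p = 0.366). CST3, the cysteine protease inhibitor cystatin C, gave 0.65 ± 0.63 (limma adjusted p = 0.458), and CTSV, a cathepsin L relative, gave -0.54 ± 0.80 (limma adjusted p = 0.545). CTSC, which activates granule proteases of leukocytes, showed the widest contrast between pairs, with -0.88, -1.92 and 3.08, and was chosen for mention after its values were seen. It was past the limits as lower when pair 3 was left out, with a log2 ratio of -1.40.

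Among 12 genes for class II turnover and costimulation, 5 were tested, with a median log2 ratio of 0.31. Past the limits was 1 as higher, beside 3.39% of all genes. CD83, a surface protein of mature dendritic cells that slows the turnover of class II molecules, had levels of 8.70, 9.45 and 9.49 in the long FSH cows and 6.68, 8.25 and 7.43 in the conventional FSH cows. The groups did not overlap. Its log2 ratios of 2.03, 1.20 and 2.06 made it the most even of the class II genes past the limits, at 1.76 ± 0.49 (SD, n = 3; limma adjusted p = 0.114). It was the only gene of the other class II lists that stayed past the limits under each alternative tried. The costimulatory ligand CD86 gave 0.31 ± 0.99, and CD80 was above background in no reading.

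Over these 4 lists together 4 of 35 tested genes were past the limits as higher, or 11.4%, beside the 3.39% of all genes. The lists were chosen with earlier results of these data known, and without pair 3 only CD83 was past the limits as higher and only CTSC as lower.

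Class I presentation, which displays peptides from inside the cell and has its own machinery, gave a median log2 ratio of 0.34 over 17 tested symbols, with 2 higher, beside 3.39% of all genes, 1 lower, beside 2.02%, and 14 not past the limits. BOLA-NC1, a non-classical class I heavy chain, gave 3.11, 0.52 and 3.68 in pairs 1, 2 and 3 (limma adjusted p = 0.249), and was not past them without pair 1. PSMB10, an immunoproteasome subunit, gave 1.32 ± 0.51 (limma adjusted p = 0.177), and CALR, a chaperone of class I folding, gave -1.34 ± 0.72 (limma adjusted p = 0.226) and -0.94 without pair 2, below the fold limit. The light chain gene B2M gave 0.29, 0.87 and 3.82 and was not past the limits (limma adjusted p = 0.437), but was past them in 11 of 22 alternatives, among them those without pair 1 and without pair 2, at 2.34 and 2.05. A second, dimmer B2M probe gave -0.43. The symbol BOLA stood at 0.23 with its brightest probe and was not past the limits. Its other tested probes gave 1.86, 1.04 and -0.1, with 3.58, 2.76 and 0.64 in pair 3. The mean over the BOLA probes was 0.76 and not past the limits.

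Of the 10 tested pan-leukocyte markers, 8 had their largest ratio in pair 3, as had 3393 of all 9932 genes, and PTPRC and CORO1A did not. Of 18 listed, 10 were tested, 3 were past the limits as higher, beside 3.39% of all genes, and none as lower. The median log2 ratio was 0.54 in pair 1, 0.37 in pair 2 and 2.59 in pair 3. LAPTM5, CORO1A, CD48, LCP2, HCLS1, RAC2 and SPI1 passed the filter on dim signals only through the long FSH group. Nothing is therefore read from the share, the medians or the number with their largest ratio in pair 3. CD53, a leukocyte tetraspanin, gave 1.30, 1.43 and 5.06 (limma adjusted p = 0.307). A second, dimmer CD53 probe gave 0.33, and the mean over the CD53 probes was 1.46 and past the limits. HCLS1, a leukocyte signalling adaptor, gave 2.64, 0.39 and 3.67 (limma adjusted p = 0.281) and was not past the limits without pair 1. Its 2 other tested probes gave -0.16 and 0.06, and the mean over its probes was 0.71 and not past the limits. SPI1, a myeloid and B cell transcription factor, gave 0.85, 0.97 and 2.85 (limma adjusted p = 0.288) and 0.91 without pair 3, below the fold limit. PTPRC, which encodes the defining leukocyte antigen CD45, gave 0.21, 0.66 and -0.57 (limma adjusted p = 0.886). The summed normalized intensity of the 10 markers was 4210, 3830 and 19400 in the long FSH cows and 2960, 2530 and 6440 in the conventional FSH cows, a sum over probes of unequal response. Without PTPRC, the brightest of them and the only one with a negative ratio in pair 3, it was 2050, 1360 and 15900 in the long FSH cows. In the conventional FSH cows it was then 964 to 1240. The brighter CD53 probe, at a level of 13.05, gave the largest part of this sum in the long FSH cow of pair 3. The part of these markers in the class II ratios was not tested.

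Of 26 macrophage and dendritic cell markers, 15 were tested and 4 were past the limits as higher, beside 3.39% of all genes. The medians were 0.24, -0.01 and 2.03 in pairs 1, 2 and 3. CD14, AIF1, CD163, LYZ, TYROBP, FCER1G, CLEC4A and MPEG1 passed the filter on dim signals only through the long FSH group. VSIG4 passed it only through the conventional FSH group. The share and the medians rest in part on these markers, so nothing is read from them. TYROBP, an adaptor of myeloid receptors, gave 1.13, 1.07 and 3.46, with a mean of 1.89 (limma adjusted p = 0.277). It was above background in no conventional FSH reading, which bounds the mean ratio, with pair 3 the largest, at 2.45-fold or more. C1QB, a complement subunit made by macrophages, gave 0.90, 0.77 and 3.35 (limma adjusted p = 0.343), and LYZ, lysozyme, gave 0.26, 1.49 and 2.81 (limma adjusted p = 0.333). The remaining one, CLEC4A, a lectin receptor of dendritic cells, gave 0.94, 1.02 and 2.03 (limma adjusted p = 0.195). It had 4 long FSH and no conventional FSH readings above background, which bounds it at 1.48-fold or more, below the 2-fold limit. As with CD74, the bounds of TYROBP and CLEC4A average in long FSH readings that were not above background. Without pair 3 C1QB, LYZ and CLEC4A were not past the limits, at 0.83, 0.87 and 0.98. The log2 ratio was below 0 for 4 of the 15 markers, CX3CR1, XCR1, VSIG4 and CD1A, at -0.21 to -0.17, none of them past the limits. CSF1R, ITGAM and C1QA were above background in none of 12 readings. The summed intensity of the 15 markers was 2280, 2210 and 14200 in the long FSH cows and 1920 to 2000 in the conventional FSH cows. Without MPEG1, the brightest of them, it was 2140, 2040 and 9100 in the long FSH cows and 1820 to 1890 in the conventional FSH cows. MPEG1 gave 0.24, 0.44 and 5.72 in pairs 1, 2 and 3 and was not past the limits (limma adjusted p = 0.486). It was above background in 5 long FSH readings and 1 conventional FSH reading. The part of the macrophage and dendritic cell markers in the class II ratios was not tested.

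Markers of other cells had lower medians in pair 3. The B cell list, with 5 of 12 markers tested and none past the limits, had a median of 0.28 in pair 3, with CD22 at 0.89 ± 0.60 (limma adjusted p = 0.337) and MS4A1, which encodes CD20, at 0.22 ± 0.42 (limma adjusted p = 0.695). CD22 was above background in 4 long FSH readings and no conventional FSH reading, which bounds its ratio at 1.39-fold or more. As with CD74, this bound averages in long FSH readings that were not above background. CD22 was past the limits without pair 1, at 1.16. CD22 and MS4A1 passed the filter only through the long FSH group. The T and NK cell list had 12 tested symbols for 21 listed genes, GZMA being there in 2 spellings. Its median was 1.23 in pair 3. GNLY, a granule protein of cytotoxic cells, was past the limits at 1.02 ± 0.47 (limma adjusted p = 0.241) but not without pair 3, at 0.77. CD3D, CD3G, CD8A, CD8B and ZAP70 passed the filter only through the long FSH group. CD7 and the gzmA spelling passed it only through the conventional FSH group. The neutrophil list, with 4 of 13 tested and none past the limits, had a median of 0.57 in pair 3, and its smallest p belonged to MMP9, a gelatinase, and IL8RB, an interleukin 8 receptor, at 0.29 ± 0.16 and 0.34 ± 0.63.

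The endothelial list, with 6 of 12 markers tested and none past the limits, had a median of -0.12 in pair 3. Its smallest p belonged to KDR, a VEGF receptor, at -0.55 ± 0.38 (limma adjusted p = 0.449) and with 4 conventional FSH readings and no long FSH reading above background, and ERG, a transcription factor, at 0.40 ± 0.19. Of the theca list 10 of 12 were tested, and the matrix genes LUM and DCN were past the limits as lower, beside 2.02% of all genes. LUM gave 0.30, -2.71 and -3.47 in pairs 1, 2 and 3 (limma adjusted p = 0.392), and was not past them without pair 2 or without pair 3. DCN gave -0.68, -2.64 and -0.27 (limma adjusted p = 0.428), and its call was lost in 10 of 22 alternatives, which gave -1.66 to -0.48, among them those without pair 1 and without pair 2. Of the granulosa list 10 of 12 were tested, with 3 past the limits as lower and 1 as higher, beside 2.02% and 3.39% of all genes. SERPINE2, a protease inhibitor, CYP19A1, the aromatase, and FST, follistatin, were lower at -1.87 ± 0.85, -1.81 ± 1.35 and -1.76 ± 0.71 (limma adjusted p = 0.163, 0.290 and 0.150), and NR5A2, a nuclear receptor, was higher at 1.30 ± 0.66 (limma adjusted p = 0.222). The 2 other NR5A2 probes gave -0.27 and 0.21, and the mean over its probes was 0.41 and not past the limits. The summed intensity of the granulosa markers was 59100 to 71300 in the long FSH cows and 108000 to 124000 in the conventional FSH cows, and without SERPINE2, the brightest, 48600 to 52700 and 60000 to 67600. Of the 10 markers 7 had a log2 ratio below 0 and 3 above it, with a median of -0.49 against 0.03 over all genes. The study names CYP19A1 and SERPINE2 among genes that normally fall after the LH surge. In these sums fewer granulosa cells and less RNA of such genes per cell cannot be told apart, and the share of granulosa cells was not tested. Whether the difference in these sums bears on the class II ratios was not tested.

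**Figure D4:**
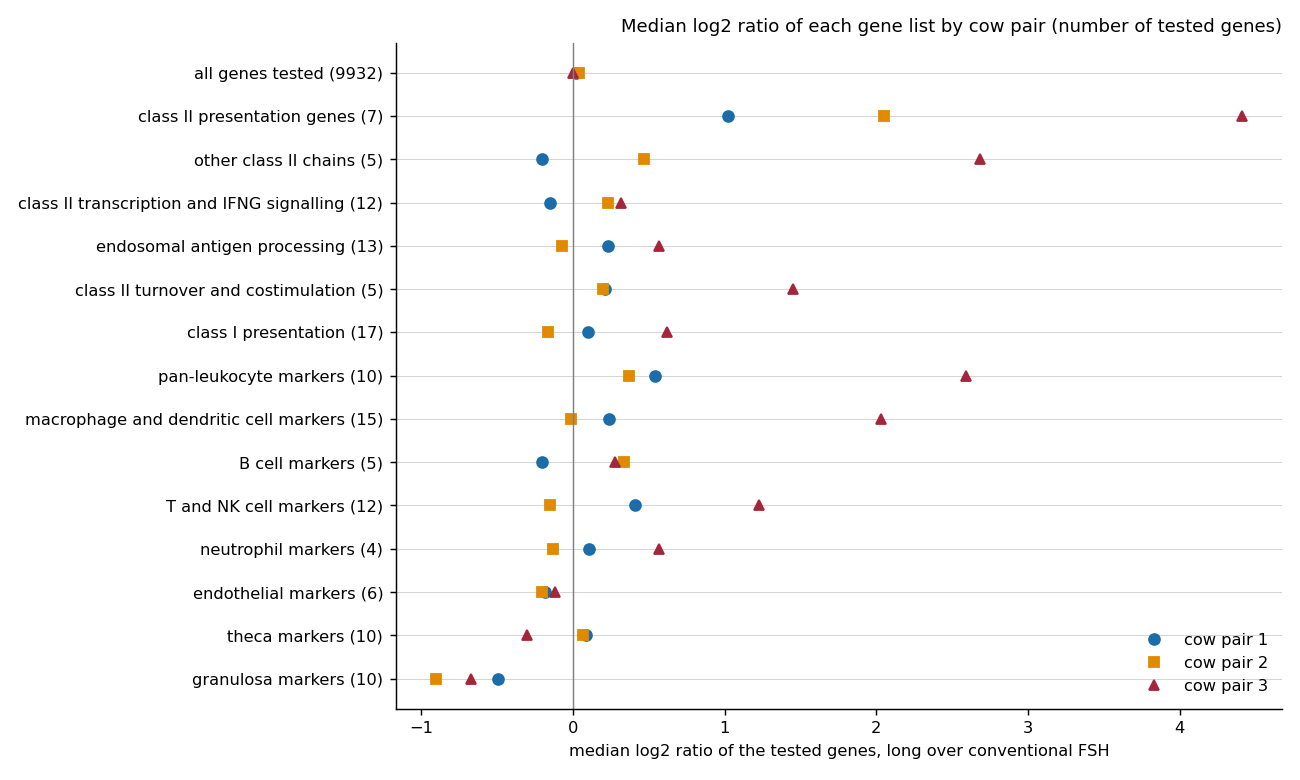
Median log2 ratio of long over conventional FSH (x axis) of the tested genes of each list (y axis, number of tested genes in brackets), with a symbol for each cow pair. Pair 3 reaches 4.41 for the class II presentation genes, 2.68 for the other class II chains, 2.59 for the pan-leukocyte and 2.03 for the macrophage and dendritic cell markers, and -0.67 for the granulosa markers.

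The 10 other tested genes whose 6 array ratios lay nearest to the median of the 7 class II presentation genes were ranked by the root mean square difference. XDH, xanthine dehydrogenase, was nearest at 0.42, with 1.36, 2.19 and 4.87 in pairs 1, 2 and 3. PILRA, an inhibitory receptor of myeloid cells, followed at 0.46, with 0.91, 1.71 and 3.70, though the mean over its probes was 0.97 and not past the limits. CD53 was next at 0.60. The others, at 0.72 to 0.84, were GIMAP5, a lymphocyte GTPase, DOCK10, STAR, the cholesterol carrier of steroid synthesis, AXL, a receptor kinase that binds dying cells, LOC616942, CD5L, a secreted macrophage protein, and TYROBP. STAR, a gene of the steroid-making follicle cell, had 1.46, 3.23 and 4.12. The likeness is over 6 arrays of 3 cow pairs and is a description only.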

How the data were processed

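The authors deposited scanner intensity values, a median foreground and a median local background for every spot and wavelength, which were used as they stand. They also deposited a table of log2 ratios, made per their methods by subtracting background, setting negative values to 0.5 and normalizing by loess and by quantiles. This table was an alternative only. Each of its columns correlated with the dye-swapped array of its pair (r = 0.77 to 0.85) rather than with its own (-0.57 to -0.27), so it was turned by the label dyes, and its direction is not stated.

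Background was subtracted here from the median foreground, with 0.5 in place of values not above 0. Loess within arrays and quantile normalization of mean intensities between arrays, which leaves ratios as they are, were run in limma 3.58.1 (R 4.3.3). The extracts of a pair were the same on its arrays, which were averaged, and limma was fitted to 3 pair means. Of 43794 probes, 23480 were tested, those with a signal over the negative control mean by more than 2 SD in 3 or more of the 6 readings of a group. A gene can pass this filter through a single group, and the shares and medians of the lists include such genes. A gene is represented by its brightest tested probe, and p was adjusted over 9932 genes (Benjamini-Hochberg). Symbols came from the platform annotation (21790 probes with 1 symbol, none with several), of which 1676 were updated through RefSeq.

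Pairing came from the shared arrays. Deviations of paired cows from their group means had r = 0.153 to 0.260 over probes, and those of unpaired cows at most -0.0131. Paired cows were read on the same arrays and deviations within a group cancel, so these values do not test the pairing. The genes and lists were chosen with earlier results of these data known. Besides the class II presentation genes, genes are named where they pass the study's limits (in the class I and cell marker lists the 3 with the largest ratios), where they have the smallest p of a list with few or none past them, or as the 10 nearest in pattern. B2M, BOLA, CD86, PTPRC, CORO1A, CTSC, CLEC4A, MPEG1, NR5A2, BOLA-DOB and the macrophage markers below 0 were named after their values were seen. The steps were tested on simulated data. Alternatives were other background corrections, normalizations, filters and limma options, arrays as replicates, the mean of a gene's probes, a 1.5-fold limit and leaving out pairs or arrays. Precision is limited by how few cow pairs there are.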

Additional observations from a re-analysis of the deposited data

How the results depend on the processing

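The median log2 ratio of the 7 class II presentation genes stayed between 1.5 and 3.49 over the 22 alternatives, and the difference of pair 3 from the other pairs between 2.68 and 3.78 where it could be computed. The numbers past the study's limits moved more. With limma's trend and robust options 82 genes were higher and 170 lower, with 0 of the class II presentation genes and 1 of the other class II genes among the higher. With the ratios deposited by the authors, 186 genes were higher and 138 lower, with 1 and 1 of these. With a 1.5-fold limit 637 genes were higher and 418 lower, with 6 and 7 of these, and without background subtraction 2 of the other class II genes were higher in place of 4. The causes were not tested, other than that a lower fold limit lets more genes pass.

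Leaving out 1 pair or 1 array gave 305 to 594 genes higher and 183 to 397 lower, 3 to 5 of the class II presentation genes, and 1 to 5 of the other class II genes higher and 0 to 1 lower, with the highest numbers of all genes and the fewest class II calls without pair 3. CTSC, at 0.09 over all pairs, ranged from -1.40 without pair 3 to 1.10 without pair 2. With the 6 arrays as replicates and the cow pair as replicate block, 445 genes were higher and 235 lower at the limits, the class II presentation genes kept 5 calls and the other class II genes had 5. In that fit 485 genes, 5 of them class II presentation genes, reached an adjusted p of 0.05 against 0 by pair means, although the arrays of a pair do not hold separate extracts. With the cows compared 3 against 3, added after seeing the data, 4 of the class II presentation genes and 4 of the other class II genes were past the limits. Dim probes limit BOLA-DMA, CD74, BOLA-DRA in the conventional FSH group and the second CTSS probe.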
